A study of Mus musculus with 2 samples.

Results

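The 6 genes described here, Gpihbp1, Lpl, Cd36, Fabp4, Fabp5 and Fabp1, encode proteins that move lipid from blood into tissue cells, and they were chosen by symbol from the 31053 genes of the count tables, each matching 1 row. Single mouse lung cells were profiled by droplet 3′ RNA sequencing in 1 Normoxia library (non-treated) and 1 Hypoxia library (10% inspired oxygen for 21 days). By their labels, both came from NG2tdT mice. In these, the NG2-CreERTM driver recombines the Ai14 tdTomato reporter after tamoxifen in cells with NG2 promoter activity and in their descendants. Tamoxifen was given 7 days before the exposure. The labels describe tdT-positive sorted cells, whereas the study's text speaks of whole lung from wild-type animals under hypoxia, with CD45+ and CD326+ cells removed. That text also combines these cells with published normoxic and hypoxic lung cells. The conflict in genotype and sorting was not settled here. The labels mention replicates, but 1 table was used for each condition, and pooling of animals is not stated. Without replicates no test was made between conditions, each difference holds for these libraries alone, and the 95% intervals given cover counting error only.

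Circulating triglyceride-rich lipoproteins are too large to leave the capillary. Lipoprotein lipase, the product of Lpl, cuts their triglycerides into fatty acids at the vessel wall. It is made by parenchymal and stromal cells and by macrophages, and GPIHBP1, a protein anchored on capillary endothelial cells, carries it to the luminal side and holds it there. CD36 is a scavenger receptor that takes up long-chain fatty acids and oxidised lipoproteins, and the fatty acid binding proteins FABP4, FABP5 and FABP1 carry fatty acids within the cell. In the lung, capillaries hold general capillary cells and aerocytes, the thin cells at the gas exchange surface.

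The Normoxia library held 373 barcodes with 1323874 unique molecular identifiers (UMIs, each 1 captured transcript) and the Hypoxia library 613 barcodes with 1989423 UMIs. The filters on detected genes and mitochondrial UMIs were those of the study's methods. They retained 293 Normoxia cells with a median of 3135 UMIs and 453 Hypoxia cells with a median of 2818 UMIs. The libraries shared 2 barcodes, of which 1 was retained in both, in a B cell-like and in a T or NK cell-like cluster. Cspg4, the gene of NG2, had 1 UMI in all retained Normoxia cells and 2 UMIs in all retained Hypoxia cells. UMIs this few do not show that the gene was off, and RNA of the tdT reporter was not analysed here. Joint clustering gave 14 clusters. The endothelial cell-like cells, 97 in Normoxia and 195 in Hypoxia with a median of 2510 and 2810 UMIs, formed 4 of them. Cluster 1 (general capillary-like, led by Ntrk2) had 21 Normoxia and 125 Hypoxia cells, and cluster 2 (general capillary-like, led by Plvap) had 53 and 44. Cluster 8 (aerocyte-like, led by Car4) had 19 and 20 cells, and cluster 14 (lymphatic-like) had 4 and 6. The 11 endothelial markers summed to between 15600 and 27709 CPM (counts of a gene per 1000000 UMIs of the same cells) in clusters 1, 2 and 8. They summed to 692 CPM in the Normoxia and 221 CPM in the Hypoxia lymphocyte-like cells. Cluster 7, with 20 Normoxia and 23 Hypoxia cells, reached the detection rule for all 11 endothelial markers. It was led by the club cell gene Scgb1a1 and by Vwf, so it stayed unnamed and is given apart. Tpm1, Chchd10 and Ldhb were also among its leading genes, and 5 general capillary, 4 arterial and 4 venous markers reached the rule. Fabp3, another fatty acid binding protein gene, had 58 Normoxia and 29 Hypoxia UMIs in cluster 7 and 0 in the endothelial cell-like cells. Only 10 of its Normoxia cells and 18 of its Hypoxia cells had UMIs of at least 3 endothelial markers.

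On GRCm38 the genes lie as follows. Gpihbp1 (ENSMUSG00000022579) is on the plus strand of chromosome 15 at 75596628 to 75599481. Lpl (ENSMUSG00000015568) is on the plus strand of chromosome 8 at 68880491 to 68907448. Cd36 (ENSMUSG00000002944) is on the minus strand of chromosome 5 at 17781690 to 17888801, a span that the annotation marks as overlapping another locus. Fabp4 (ENSMUSG00000062515, minus strand, 10204088 to 10208576) and Fabp5 (ENSMUSG00000027533, plus strand, 10012548 to 10016607) are 187 kb apart on chromosome 3. Fabp1 (ENSMUSG00000054422) is on the plus strand of chromosome 6 at 71199827 to 71205023. Counting was by 3′ tags with no length correction, so levels were compared between cells and libraries, not between genes. Fabp5 has processed copies elsewhere in the genome, so its counts may be incomplete.

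The members divided among cell types rather than following each other. Gpihbp1 and Cd36 were high in general capillary-like cells, Cd36 without much Gpihbp1 in aerocyte-like cells, Lpl in fibroblast-like and alveolar macrophage-like cells, Fabp4 in a few cells of unnamed clusters, and Fabp1 in alveolar macrophage-like cells. Between libraries, endothelial Cd36 was lower in Hypoxia in each of clusters 1, 2 and 8, and endothelial Gpihbp1 differed little. The endothelial Fabp5 ratio was above 0, but its size depended on how cells were assigned. Its interval held 0 in cluster 1 alone and when the unnamed cluster 7 was counted as endothelial. Among the 6168 genes with at least 20 UMIs in endothelial cell-like cells, 5.29% were at least 2-fold higher and 4.41% at least 2-fold lower in Hypoxia. Of the 4 members with that many UMIs, 1 (Fabp5) was past 2-fold higher and 0 past 2-fold lower. With 4 members, these counts do not set the genes apart from the background.

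**Figure D1:**
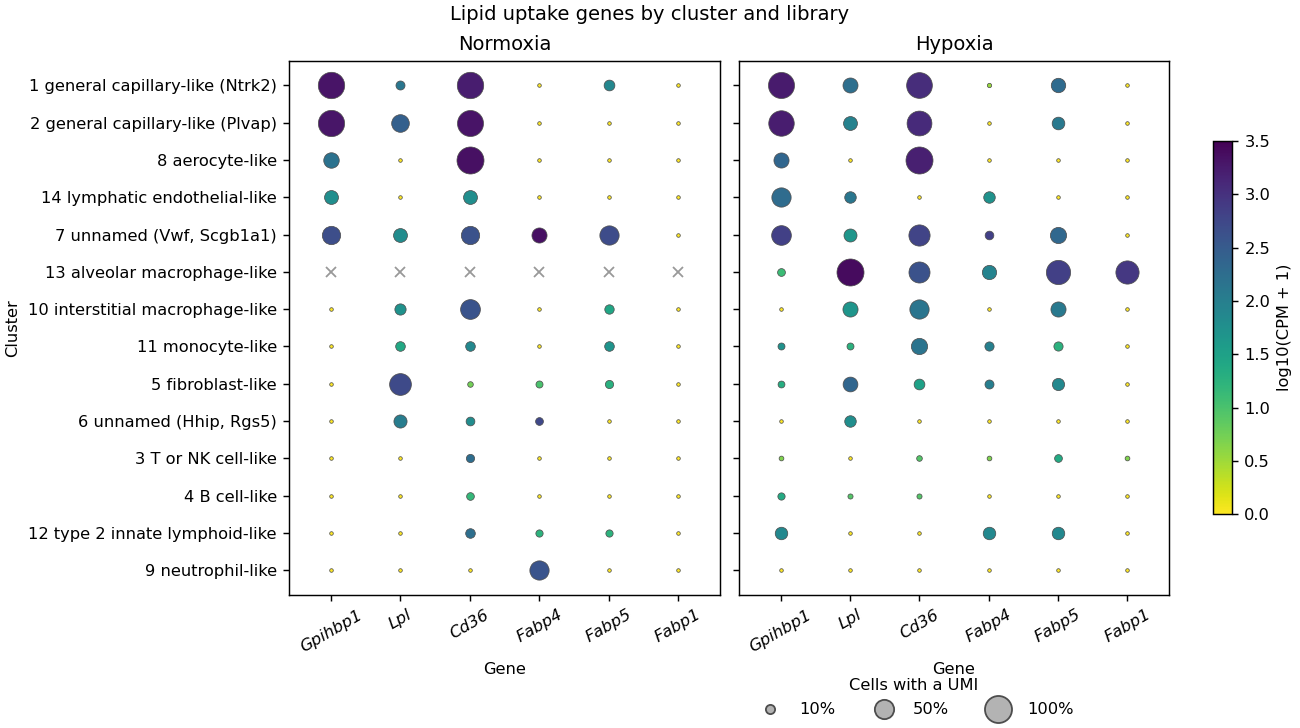
Level of each gene in each cluster in the Normoxia (left) and Hypoxia (right) library. Colour gives log10(CPM + 1), dot size the share of cells with at least 1 UMI, and a cross marks the cluster with 0 Normoxia cells. Gpihbp1 has darker and larger dots in clusters 1 and 2 than in cluster 8, where Cd36 is dark. The Fabp4 dot of cluster 9 in Normoxia rests on 1 UMI in 2 cells.

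The anchor of lipoprotein lipase was highest in general capillary-like cells. In Normoxia, Gpihbp1 had 110 UMIs in 20 of 21 cells of cluster 1 (2056 CPM) and 279 UMIs in 50 of 53 cells of cluster 2 (2014 CPM). In Hypoxia, cluster 1 had 690 UMIs in 116 of 125 cells (1739 CPM) and cluster 2 had 218 UMIs in 39 of 44 cells (1656 CPM). Both clusters stood at the same level within counting error in either library. In the aerocyte-like cluster 8, Gpihbp1 had 9 UMIs in 6 of 19 Normoxia cells (152 CPM) and 19 UMIs in 6 of 20 Hypoxia cells (230 CPM). This was lower than in general capillary-like cells by a log2 ratio of -3.74 (interval -4.88 to -2.80) in Normoxia and -2.90 (-3.64 to -2.25) in Hypoxia. The unnamed cluster 7 stood between them, with 44 UMIs in 9 of 20 Normoxia cells (475 CPM) and 92 in 12 of 23 Hypoxia cells (684 CPM). The lymphocyte-like cells, taken as a guide to free RNA, held 0 Gpihbp1 UMIs in 44 Normoxia cells and 4 UMIs in 130 Hypoxia cells. All Normoxia clusters other than 1, 2, 7, 8 and 14 were at 0.

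Gpihbp1 differed little between the libraries. Over all endothelial cell-like cells it had 399 Normoxia UMIs (1489 CPM) and 934 Hypoxia UMIs (1440 CPM), a log2 ratio of Hypoxia over Normoxia of -0.05 (interval -0.22 to 0.12). When cells were instead taken by UMIs of at least 3 endothelial markers, whatever their cluster, it was 0.22 (0.06 to 0.38). Within general capillary-like cells alone the ratio was -0.24 (-0.41 to -0.06). The median cell of cluster 1 had 17.2 Gpihbp1 UMIs per 10000 in Normoxia and 17.1 in Hypoxia, and that of cluster 2 had 19.8 and 18.4. After thinning each cell to 1000 UMIs, 72.9% of 70 Normoxia and 77.8% of 162 Hypoxia general capillary-like cells held a Gpihbp1 UMI, a difference of 4.92 percentage points (-7.35 to 18.4). Over all retained cells, by contrast, the ratio was 0.71 (0.55 to 0.88), and 24.1% (Normoxia) and 40.7% (Hypoxia) of all retained UMIs came from endothelial cell-like cells.

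The fatty acid receptor gene Cd36 was found in every capillary cluster. In Normoxia it had 90 UMIs in 20 of 21 cells of cluster 1 (1683 CPM), 286 UMIs in 49 of 53 cells of cluster 2 (2064 CPM) and 137 UMIs in 19 of 19 cells of cluster 8 (2306 CPM). In Hypoxia it had 455 UMIs in 113 of 125 cells of cluster 1 (1146 CPM), 158 UMIs in 37 of 44 cells of cluster 2 (1200 CPM) and 130 UMIs in 20 of 20 cells of cluster 8 (1575 CPM). The aerocyte-like cells were thus as high in Cd36 as general capillary-like cells in Normoxia (log2 ratio 0.24, interval -0.06 to 0.52) and above them in Hypoxia (0.44, 0.16 to 0.72). Lymphatic-like cells had 1 Cd36 UMI in 4 Normoxia cells and 0 in 6 Hypoxia cells. Among Normoxia lymphocyte-like cells 13 Cd36 UMIs were counted, 11 of them in 1 cell, and the Hypoxia lymphocyte-like cells had 3.

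Endothelial Cd36 was lower in the Hypoxia library. It had 514 Normoxia UMIs (1918 CPM) and 743 Hypoxia UMIs (1146 CPM), a log2 ratio of -0.74 (interval -0.91 to -0.58) or 0.597 times the Normoxia level. Cluster 1 had a ratio of -0.55 (-0.88 to -0.21), cluster 2 one of -0.78 (-1.07 to -0.50), and cluster 8 one of -0.55 (-0.91 to -0.19), so the lower level was seen within each cluster and not only in their mixture. The typical cell differed as well. The median Cd36 level per 10000 UMIs was 14.4 in Normoxia and 9.81 in Hypoxia in cluster 1, 19.3 and 9.43 in cluster 2, and 23.4 and 15.7 in cluster 8. In cluster 2 of Hypoxia 1 cell held 35 of the 158 UMIs. After thinning, 84.9% of 93 Normoxia and 66.5% of 188 Hypoxia endothelial cell-like cells held a Cd36 UMI, a difference of -18.5 points (-28.2 to -7.30), which came to -6.64 points (-17.0 to 4.64) with a mitochondrial maximum of 10% and to -4.57 points (-11.8 to 3.97) without thinning. The interval of this share difference left out 0 in 8 of 16 alternatives. The Cd36 level (CPM) stayed lower in Hypoxia under 19 of 19 other ways of processing, with ratios from -0.79 to -0.49. All reuse the same libraries, and leaving out shared barcodes, counted among them, could not move the ratio.

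Summed over their lists, the markers that define these cells stood lower in Hypoxia too. The 7 general capillary markers summed to 8543 CPM in Normoxia and 5090 CPM in Hypoxia in cluster 1, and to 8691 and 4245 CPM in cluster 2. The 8 aerocyte markers summed to 15386 and 13620 CPM in cluster 8. All 7 general capillary markers had UMIs in clusters 1 and 2 in both libraries. The part that the shift in these sums has in the Cd36 ratio was not tested. In the unnamed cluster 7 the Cd36 ratio pointed the other way, from 38 Normoxia UMIs (410 CPM) to 84 Hypoxia UMIs (625 CPM), which is 0.61 on the log2 scale (0.04 to 1.20). The same cluster held more endothelial marker RNA in Hypoxia, at 7773 CPM against 3758 CPM in Normoxia, and less fibroblast marker RNA, at 231 CPM against 5496 CPM for the 10 markers summed. The part that these shifts have in the ratios of cluster 7, those of Fabp5 and Fabp4 below included, was not tested.

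**Figure D2:**
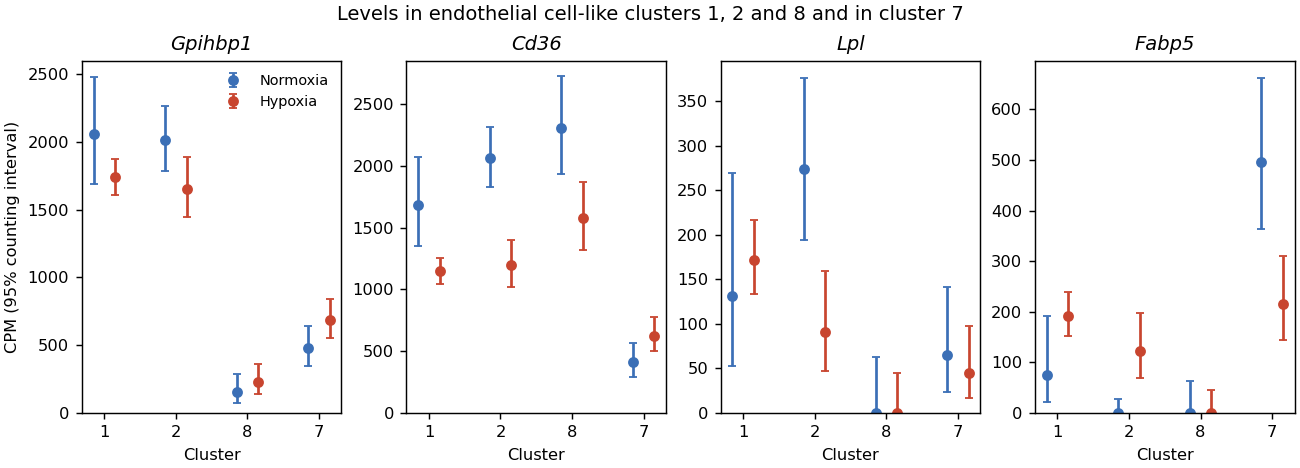
CPM of Gpihbp1, Cd36, Lpl and Fabp5 in endothelial cell-like clusters 1, 2 and 8 and in unnamed cluster 7, with 1 point per library (blue, Normoxia; red, Hypoxia) and exact 95% Poisson intervals for counting error; each panel has its own axis from 0. Cd36 is lower in Hypoxia in clusters 1, 2 and 8 and higher in cluster 7, while Gpihbp1 in cluster 8 stays at 152 and 230 CPM.

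Gpihbp1 and Cd36 were seen together in a larger share of general capillary-like cells than of aerocyte-like cells. At 1000 UMIs per cell, cluster 1 had both genes together in 14 of 19 Normoxia cells and in 67 of 122 Hypoxia cells, and cluster 2 in 33 of 51 and in 18 of 40. In the aerocyte-like cluster 8, Cd36 was seen without Gpihbp1 in 15 of 19 Normoxia and 13 of 20 Hypoxia cells, and both together in 1 and 3 cells. A gene missed at this depth is not shown to be absent.

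Lpl, the lipase itself, was a minor transcript of capillary cells. In Normoxia it had 7 UMIs in 2 of 21 cells of cluster 1 (131 CPM) and 38 UMIs in 22 of 53 cells of cluster 2 (274 CPM). In Hypoxia it had 68 UMIs in 37 of 125 cells of cluster 1 (171 CPM) and 12 UMIs in 11 of 44 cells of cluster 2 (91.1 CPM). The clusters differed in direction, with a log2 ratio of 0.39 (interval -0.73 to 1.76) in cluster 1 and -1.59 (-2.66 to -0.62) in cluster 2. Over all endothelial cell-like cells the 45 Normoxia and 85 Hypoxia UMIs gave -0.36 (-0.90 to 0.20), an interval that held 0. Over the general capillary-like cells alone, from 45 and 80 UMIs, it was -0.63 (-1.18 to -0.07), and that interval left out 0 in 8 of the 14 alternatives that gave one. Lpl was at 0 of 19 Normoxia and 0 of 20 Hypoxia aerocyte-like cells, which allows shares of cells with a UMI of up to 15.8% (Normoxia) and 15% (Hypoxia). Against 3 counts as the limit of a count of 0, the general capillary-like level was at least 4.64-fold higher than the aerocyte-like level in Normoxia and at least 4.16-fold higher in Hypoxia.

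The highest Lpl levels were in fibroblast-like cells in Normoxia and in alveolar macrophage-like cells in Hypoxia. Fibroblast-like cells (cluster 5) had 114 UMIs in 25 of 39 Normoxia cells (514 CPM) and 22 UMIs in 6 of 21 Hypoxia cells (226 CPM), a log2 ratio of -1.18 (interval -1.91 to -0.52). In Hypoxia 1 fibroblast-like cell held 11 of the 22 UMIs, and the 3 cells with most held 77.3%. Markers of alveolar fibroblasts and of myofibroblasts tied in this cluster, so a shift between those kinds of fibroblast was not tested. The Normoxia fibroblast-like level was above the general capillary-like level by a log2 ratio of 1.13 (0.62 to 1.66), while in Hypoxia the ratio was 0.58 (-0.17 to 1.27), an interval that held 0. Interstitial macrophage-like cells (cluster 10) had 4 UMIs in 19 Normoxia and 3 in 10 Hypoxia cells, and monocyte-like cells (cluster 11) had 1 in 9 and 2 in 20.

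Fabp1, Lpl and Fabp5 met in the alveolar macrophage-like cells. These are the resident phagocytes of the air space, known for taking up and breaking down surfactant lipid. Cluster 13 had 15 cells, led by Chil3, Ear2, Ear1 and Fabp1, all from the Hypoxia library. Lpl was found in 15 of 15 cells, with 205 UMIs in all (2472 CPM), from 1 to 37 per cell with a median of 12. Fabp1, the liver-type fatty acid binding protein gene, had 72 UMIs in 11 of 15 cells (868 CPM), up to 19 in 1 cell. Fabp5 had 56 UMIs in 12 cells (675 CPM), Cd36 had 34 UMIs in 9 cells (410 CPM) and Fabp4 had 7 UMIs in 4 cells (84.4 CPM). Within Hypoxia, Lpl was higher there than in fibroblast-like cells by a log2 ratio of 3.45 (interval 2.81 to 4.16) and than in general capillary-like cells by 4.03 (3.65 to 4.42). Gpihbp1 had 1 UMI in these cells.

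Nearly all Fabp1 UMIs were in these cells. Fabp1 had 0 UMIs in all 373 Normoxia barcodes and 96 UMIs in the Hypoxia barcodes, of which 73 were in retained cells. Of these, 72 were in cluster 13 and 1 in a T or NK cell-like cell. No retained Normoxia cell had UMIs of 3 or more of the 7 alveolar macrophage markers, which allows up to 1.02% of the 293 cells, and no Normoxia barcode left out by the filters did, which allows up to 3.75% of 80. Fabp1 was at 0 in 97 Normoxia and 195 Hypoxia endothelial cell-like cells, which allows shares with a UMI of up to 3.09% and 1.54%. Within macrophage or monocyte-like cells the Lpl sum was 5 UMIs in Normoxia and 210 in Hypoxia. As the alveolar macrophage-like cells of Normoxia numbered 0, this gives the makeup of the libraries and not a level within a cell type. How the sort or depletion bears on that makeup was not tested. In interstitial macrophage-like cells, which both libraries held, Cd36 had 31 UMIs in 10 of 19 Normoxia cells (397 CPM) and 9 UMIs in 5 of 10 Hypoxia cells (138 CPM), a log2 ratio of -1.53 (interval -2.78 to -0.42).

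Fabp5, the epidermal-type fatty acid chaperone found in many capillary beds, was low in Normoxia endothelial cell-like cells. It had 4 UMIs in 3 of 21 cells of cluster 1 (74.8 CPM) and 0 UMIs in 53 cells of cluster 2. In Hypoxia it had 76 UMIs in 34 of 125 cells of cluster 1 (191 CPM) and 16 UMIs in 9 of 44 cells of cluster 2 (122 CPM), and the 3 endothelial cell-like cells with most UMIs held 21.7% of the total. Aerocyte-like and lymphatic-like cells were at 0 in both libraries. The sums of 4 and 92 UMIs (14.9 and 142 CPM) gave a log2 ratio of 3.25 (interval 1.84 to 5.15). Within clusters, the Hypoxia level in cluster 2 was at least 5.61-fold that of Normoxia, taking 3 counts as the limit of a count of 0, and the ratio in cluster 1 was 1.36 (-0.06 to 3.27). After thinning, 0 of 51 Normoxia and 17.5% of 40 Hypoxia cells of cluster 2 held a Fabp5 UMI, a difference of 17.5 points (5.17 to 32.8). In cluster 1 the thinned shares were 10.5% of 19 and 8.20% of 122 cells, from which no order is read, as the CPM pointed the other way.

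The endothelial Fabp5 ratio depended on which cells were counted as endothelial. Cluster 7 held 46 Fabp5 UMIs in 10 of 20 Normoxia cells (497 CPM) and 29 in 8 of 23 Hypoxia cells (216 CPM), a log2 ratio of -1.20 (interval -1.93 to -0.50). Of the 46 Normoxia UMIs, 20 were in the 10 cells with at least 3 endothelial markers and 26 in the other 10 cells. With cluster 7 counted as endothelial the ratio was 0.16 (-0.33 to 0.66), and with all cells that had at least 3 endothelial markers it was 1.24 (0.60 to 1.94). A mitochondrial maximum of 10% gave 1.03 (0.39 to 1.72), 1000 variable genes 0.97 (0.26 to 1.72) and 30 principal components 0.93 (0.30 to 1.62). The ratio stayed above 0 in 19 of 19 alternatives, among them leaving out shared barcodes, which could not move it. Neither the size of the ratio nor, with cluster 7 counted, its direction was settled by these data. In lymphocyte-like cells, taken as a guide to free RNA, Fabp5 had 0 UMIs in 44 Normoxia and 6 in 130 Hypoxia cells. The 6 were all in T or NK cell-like cells, and whether those cells express Fabp5 themselves was not tested. The median depths of lymphocyte-like cells were 3889 (Normoxia) and 2475 (Hypoxia) UMIs. At 1000 UMIs, 1.55% of the Hypoxia lymphocyte-like cells and 9.04% of the Hypoxia endothelial cell-like cells held a Fabp5 UMI. The Hypoxia endothelial cell-like cells held 92 Fabp5 and 0 Fabp1 UMIs, and the alveolar macrophage-like cells held 56 and 72. The part that free RNA has in the endothelial Fabp5 sums was not tested.

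**Figure D3:**
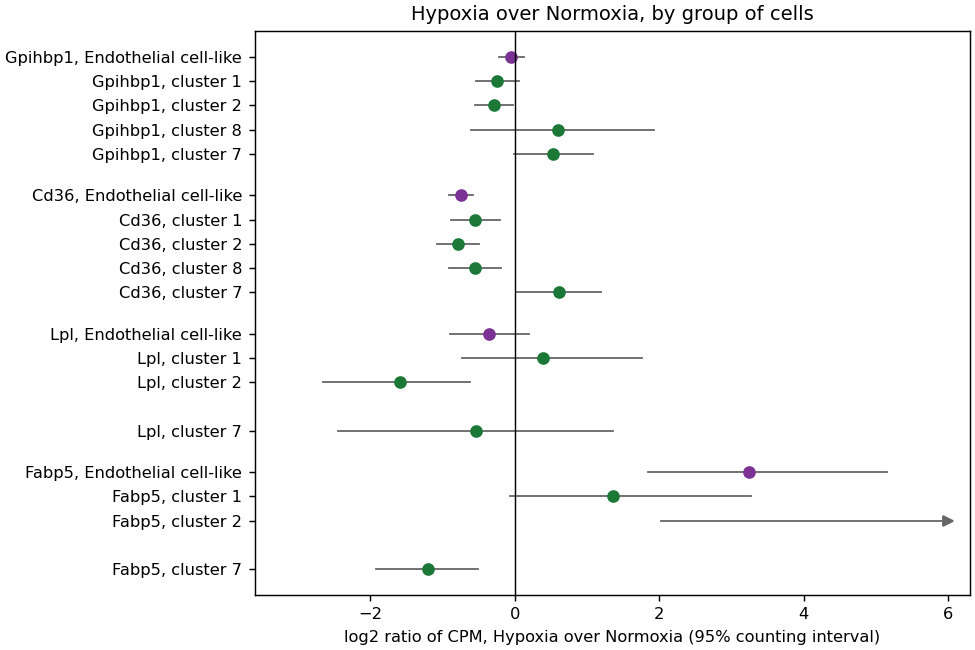
Log2 ratio of CPM, Hypoxia over Normoxia, of 4 genes in all endothelial cell-like cells (purple) and in single clusters (green), with 95% counting intervals; the arrow marks the interval without an upper end for Fabp5 in cluster 2, where Normoxia had 0 UMIs. Cd36 lies left of 0 in clusters 1, 2 and 8, and Cd36 and Fabp5 have opposite signs in cluster 7; clusters with 0 UMIs in both libraries have no point.

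Fabp4, the adipocyte-type chaperone that is a usual marker of capillary endothelium in heart, muscle and fat, was hardly counted in the endothelial cell-like cells here. It had 0 UMIs in 97 Normoxia endothelial cell-like cells, which allows a share of cells with a UMI of up to 3.09%, and 3 UMIs in 2 of 195 Hypoxia cells. Its UMIs were held by few cells, 296 in 13 retained Normoxia cells and 126 in 14 retained Hypoxia cells, and clusters 6 and 7 held 98.6% and 73.8% of them. In cluster 7, 5 Normoxia cells had 63, 52, 52, 29 and 13 Fabp4 UMIs and 1 Hypoxia cell had 89. These 6 cells had UMIs of 8 to 11 of the 11 endothelial markers and 0 pericyte markers. Each of the 6 also held Gpihbp1, 5 held Cd36 and 5 held Fabp5.

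A pair of transcription factors known to act together in endothelial fatty acid uptake, Meox2 and Tcf15, was seen in some of these cells. Meox2 had UMIs in 3 and Tcf15 in 2 of the 6 Fabp4-high cells of cluster 7, against 0 and 1 of its other 37 cells. Neither was limited to such cells, as Meox2 also had UMIs in 6 of 39 Normoxia and 5 of 21 Hypoxia fibroblast-like cells, and Tcf15 in 3 Hypoxia cells of cluster 1 and 2 of cluster 2. The 6 cells were picked by their Fabp4 counts after the values had been seen, so no more than the counts is given. In cluster 6, an unnamed cluster led by Hhip, Igfbp3 and Rgs5 with 45 Normoxia and 6 Hypoxia cells, 3 Normoxia cells had 53, 15 and 11 Fabp4 UMIs. These held 7, 5 and 7 of the 9 pericyte markers and 0 Gpihbp1 UMIs. Among the Hypoxia cells outside clusters 7 and 13, the highest was a monocyte-like cell with 10 UMIs. The Fabp4 ratio in cluster 7 was -1.73 (interval -2.10 to -1.38), from 213 UMIs in 6 Normoxia and 93 in 2 Hypoxia cells, so it rests on the few cells just listed.

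**Figure D4:**
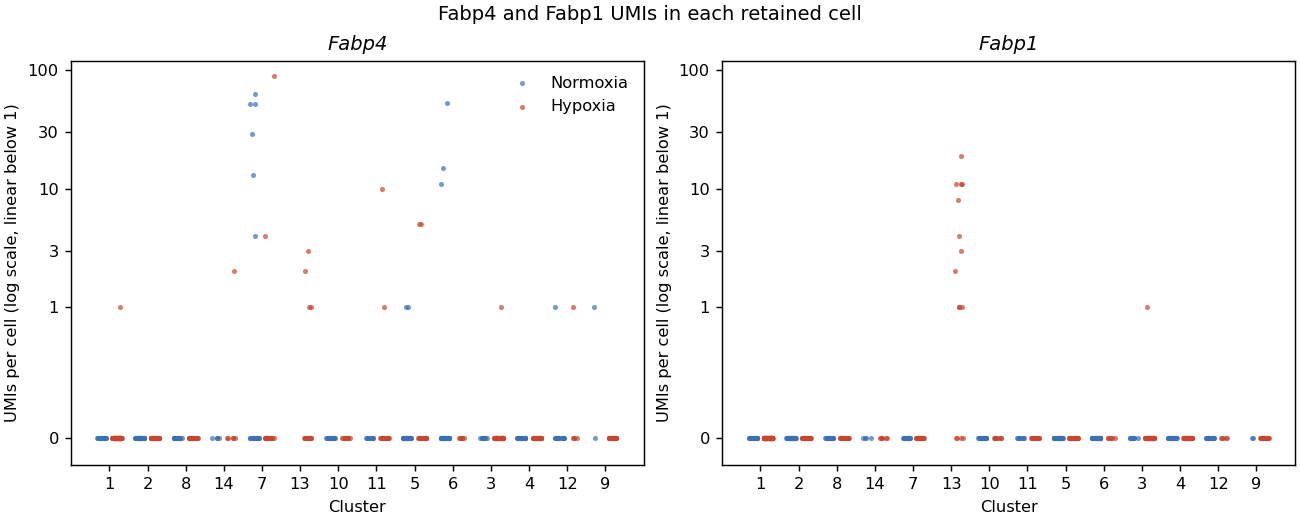
UMIs of Fabp4 (left) and Fabp1 (right) in each retained cell by cluster, blue for Normoxia and red for Hypoxia, on an axis that is logarithmic above 1 and linear below, with points spread sideways for legibility. All cells with more than 10 Fabp4 UMIs lie in clusters 6 and 7, and Fabp1 above 1 UMI only in cluster 13, which has 0 Normoxia cells.

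The wider pathway was read in the endothelial cell-like cells from 60 genes in 7 lists, of which 26 had at least 20 UMIs. None was at least 2-fold higher and 1 was at least 2-fold lower in Hypoxia, against 5.29% and 4.41% of all 6168 genes; over the other settings tried these counts ran from 0 to 3 and from 1 to 4. Their median log2 ratio was 0.12, that of the 4 members -0.20 and that of all genes -0.02. For 2 pathway genes the interval lay above 0 and for 3 below it, against 6.16% and 7.98% of all genes. With 26 genes, these counts do not set the pathway apart from the background. The 5 genes of the lipase partner list with enough UMIs (Lmf1, Lmf2, Sel1l, Pcsk5 and Furin) and Scarb1, a lipoprotein receptor, all had intervals that held 0. Angptl4, the lipase inhibitor, was below the minimum.

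Of the 5 genes whose interval left out 0, 4 were among the 8 measured of the lipid droplet and triglyceride list and 1 among the 8 of the beta-oxidation list. Hilpda, which encodes a lipid droplet protein that inhibits the triglyceride lipase ATGL and is known as a target of hypoxia-inducible factors, had 343 Normoxia UMIs (1280 CPM) and 260 Hypoxia UMIs (401 CPM), a log2 ratio of -1.67 (interval -1.91 to -1.44). It was lower in Hypoxia in cluster 1 (-1.62), cluster 2 (-1.67) and cluster 8 (-1.75). Mgll, the monoacylglycerol lipase gene, had 65 and 292 UMIs (243 and 450 CPM), a ratio of 0.89 (0.50 to 1.30). Within clusters its ratio was larger, at 1.31 in cluster 1, 1.89 in cluster 2 and 1.28 in cluster 8, where it went from 707 CPM (Normoxia) to 1721 CPM (Hypoxia). Pnpla2, the gene of ATGL, had 47 and 66 UMIs (175 and 102 CPM) and a ratio of -0.79 (-1.35 to -0.21). Acadl, a dehydrogenase of beta-oxidation, had 43 and 53 UMIs (160 and 81.7 CPM) and a ratio of -0.97 (-1.58 to -0.36). Lipe, the hormone-sensitive lipase gene, had 16 and 68 UMIs (59.7 and 105 CPM) and a ratio of 0.81 (0.01 to 1.70). Within clusters, the Pnpla2 interval held 0 in clusters 1, 2 and 8, with a ratio of -0.03 (-1.25 to 1.24) in cluster 8. The Acadl interval held 0 in clusters 1 and 8, and the Lipe interval in clusters 1, 2 and 8. Lower Hilpda and higher Mgll thus stood beside the lower Cd36 within each of these clusters. The ratios of Pnpla2, Acadl and Lipe rest mainly on the pooled cells.

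**Figure D5:**
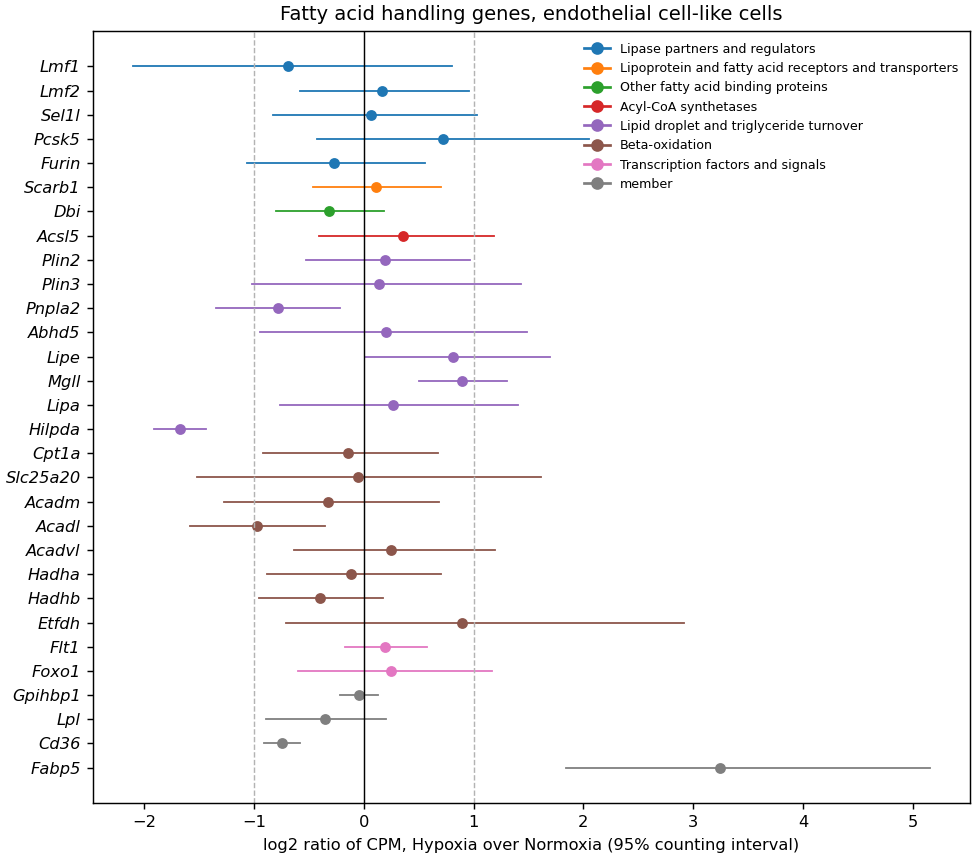
Log2 ratio of CPM, Hypoxia over Normoxia, in endothelial cell-like cells for the 26 pathway genes with at least 20 UMIs, coloured by list, and for 4 members in grey, with 95% counting intervals; dashed lines mark 2-fold. Hilpda lies below the lower dashed line and Fabp5 above the upper one.

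The genes whose levels ran most like each member were sought over 15 points, each a cluster or cell class in 1 library with at least 10 cells, by Pearson's r of log2(CPM + 10) among 3911 genes. The points share libraries and differ in depth, so r is a description. Gpihbp1 was closest to Spns2 (r = 0.983), Aplnr (0.978) and Tie1 (0.973), and Cd36 to Hpgd (0.951), Ehd4 (0.939) and Nostrin (0.928), of which Aplnr, Tie1 and Hpgd are among the endothelial or general capillary markers that named the clusters. Lpl was closest to Grn (0.884), Creb5 (0.884) and Lima1 (0.879). Fabp4 was closest to Ldhb (0.911), Tcap (0.904) and Des (0.899), and Fabp5 to Uqcrq (0.850), Fam129b (0.823) and Ccnd1 (0.795). For Fabp1, with 73 UMIs, no likeness was computed.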

How the data were processed

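The authors deposited, per library, a matrix of UMI counts (genes by barcodes, not normalized), made per the file headers by Cell Ranger 3.1.0. The submitters' processing notes name the build mm10, and the study's methods name STAR. The 6 members, the 7 pathway lists and the marker lists were chosen with earlier results of these data known.

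The filters of the study's methods, a range of 200 to 6000 genes and a mitochondrial maximum of 5%, left out 80 Normoxia and 160 Hypoxia barcodes. For mouse cells the study's results name a maximum of 4000 genes instead, which was tried here as an alternative. Both libraries were clustered jointly in scanpy 1.11.5 on genes seen in at least 3 cells, after log-normalization to 10000 UMIs, with 2000 variable genes without members and pathway genes, 15 components, 15 neighbours and Leiden resolution 1.0. A marker counted for a cluster when detected in at least 25% of its cells at 2 times the median CPM over clusters. A name needed 3 such markers, no tie, and no other class with more markers among the 10 leading genes. That rule was set with the clusters known. Doublets were not removed; Scrublet marked 1 Normoxia and 2 Hypoxia cells.

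CPM is the UMI sum of a gene over the UMI sum of the cells. Exact Poisson, conditional binomial and Clopper-Pearson intervals (95%) cover counting error only, and a count of 0 was taken to allow 3 counts. Shares were compared at 1000 UMIs per cell without shallower cells. The ratio step was tested on simulated counts. The genes named were the 6 members, pathway genes with at least 20 UMIs whose interval left out 0, and for each member with at least 100 UMIs the 3 most alike genes; the genes named as lying within their interval and the cluster 7 details were chosen after their values were seen. Positions are from GENCODE on GRCm38. Alternatives were other filters, clusterings, scalings, minimums and thinning depths.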

Additional observations from a re-analysis of the deposited data

Results flagged for a closer look

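The Cd36 ratio of Hypoxia over Normoxia was negative in the endothelial cell-like clusters, at -0.55 (cluster 1), -0.78 (cluster 2) and -0.55 (cluster 8), and positive in the unnamed cluster 7, at 0.61, with all 4 counting intervals off 0. The Fabp4 ratio was -1.73 in cluster 7 and 3.51 in the fibroblast-like cluster 5, where it rests on 2 Normoxia and 10 Hypoxia UMIs. For Fabp5 the ratio was -1.20 in cluster 7 and 2.00 in cluster 5, the latter from 4 and 7 UMIs. With 1 library per group these differences between clusters were not tested.

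Hypoxia barcodes that the filters left out held signal of the alveolar macrophage-like kind. Of these barcodes, 13 had UMIs of at least 3 of the 7 alveolar macrophage markers, and all 13 were above the mitochondrial maximum. They held 115 Lpl UMIs, and 23 Fabp1 UMIs were counted in the left-out Hypoxia barcodes. In Normoxia the left-out barcodes held 0 Fabp1 UMIs and 9 Lpl UMIs.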

How the results depend on the processing

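Of 192 values recomputed under 24 other settings for endothelial cell-like cells, 155 lay within the counting interval of the reported value. For counts of pathway genes, this meant an equal count. That bound is wide, as it held the Gpihbp1 share difference of 1.66 points with a mitochondrial maximum of 10%, against 11.6 as reported. No value whose interval left out 0 turned sign. Values near 0 did: Gpihbp1 kept its sign in 14 of 19 settings, the Lpl share difference in 13 of 16 and the Fabp4 share difference, 0.53 points (-3.39 to 2.93) as reported, in 8 of 16. Cd36 remained lower in Hypoxia in 19 of 19 settings and its interval left out 0 in 17 of the 17 that gave one. Lpl ratios were below 0 in all 19, from -0.63 to -0.05, and Gpihbp1 ratios ran from -0.22 to 0.22. A mitochondrial maximum of 10% gave a Fabp5 ratio of 1.03, a thinned Cd36 share difference of -6.64 points, a Fabp4 share difference of -3.49 points and 2 pathway genes past 2-fold higher. No mitochondrial maximum gave 1.03 and 2 such genes. With 1000 variable genes the Cd36 ratio was -0.55, that of Fabp5 0.97 and the Fabp4 share difference -4.58 points, with 1 pathway gene higher and 2 lower. With 30 components these were 0.93 (Fabp5), -3.79 points (Fabp4) and 2 lower. Cells chosen by at least 3 endothelial markers gave ratios of 0.22 (Gpihbp1, 0.06 to 0.38), -0.49 (Cd36) and 1.24 (Fabp5), a Fabp4 share difference of -5.14 points (-11.3 to -0.80), and 1 pathway gene higher and 4 lower. With cluster 7 as endothelial, an alternative chosen after the data had been seen, the values were -0.54 (Cd36), 0.16 (Fabp5), -3.51 points (Fabp4), 3 higher and 4 lower. With clusters 1, 2 and 8 weighted equally, also chosen later, Gpihbp1 was at -0.22. Without thinning the share differences were -4.57 points for Cd36 and 19.0 points for Fabp5, and thinning to 2000 UMIs gave 14 points for Fabp5. One pathway gene, against 0, was past 2-fold higher with a maximum of 4000 genes, without marked doublets, at resolution 0.5, with 3000 variable genes, with 10 components and with equal weight per cell, and 2 with median-of-ratios scaling. A minimum of 10 UMIs gave 2 pathway genes lower. The causes were not tested. Leaving out shared barcodes, the third alternative added later, could not move these ratios, as no endothelial cell-like cell had one.

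No paired analysis was possible because each group had 1 library, and no replicate could be left out. Depth limits Fabp4 and Fabp5 in Normoxia, where 0 and 4 endothelial UMIs were counted, and clusters 8 and 14, with at most 20 cells per library.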
